A study of Mus musculus with 6 samples.

Results

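The heat shock chaperone genes described here are a set of 10 genes chosen by symbol: Hspa1a, Hspa1b, Hspa5, Hspa8, Hspb1, Dnajb1, Hsph1, Hspd1, Hspe1 and Hsf1. Their probe sets were those that the platform annotation assigns to exactly 1 gene symbol equal to a member. This gave 20 probe sets for 9 of the 10 genes, of 34958 probe sets with 1 symbol, which stand for 18193 genes, and 45101 probe sets in all. Hsf1 had 0 such probe sets and has no value here. The arrays measured messenger RNA in LSK cells, bone marrow cells without mature lineage markers but with Sca-1 and Kit on their surface, which hold the blood stem cells and earliest progenitors. There were 2 groups of 3 samples, wild type (WT) and Tet1 KO, 1 array each, from mice of 6 months of age whose strain is written CD57BL/6 in the labels. No treatment is named for either group, and the sources used here do not give the deleted part of Tet1, whether the deletion reaches all tissues, or whether each sample came from its own mouse. The p-values therefore measure the spread between these samples, which may be partly technical.

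Chaperones bind unfolded proteins and help them to fold, to cross membranes or to be degraded. The HSP70 proteins do this by cycles of ATP hydrolysis, which J-domain proteins start and nucleotide exchange factors such as HSP110 complete, while small heat shock proteins hold unfolded clients without ATP. After heat or other protein damage, the transcription factor HSF1 binds heat shock elements, which are inverted repeats of the letters GAA, and raises the inducible members many-fold. The endoplasmic reticulum and the mitochondria have chaperones of their own, under separate stress responses. Blood stem cells are known to keep protein synthesis low and to be sensitive to misfolded protein, and sorting itself can stress cells.

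The promoters of the members are shown because stress response elements there are a known way in which such genes are raised. No binding or promoter activity was measured on these arrays. A promoter window in the RefSeq sequences of GRCm38.p6 was found for 8 of the 10 members, and the 250 bases before the gene start were searched on both strands for GAANNTTC or TTCNNGAA, the pair of ways in which 2 adjacent repeats of a heat shock element can face each other. Either form was present in at least 1 window for 6 of these 8 genes, against 12.8% of the 32851 windows of the same length. The first counts genes and the second windows, so they are not like measures. Dnajb1, Hspd1 and Hsph1 had 2 windows each, with a match in 0, 1 and 2 of them. The endoplasmic reticulum stress element, by which the unfolded protein response raises its targets, was found on either strand in 0.113% of windows and, among the members, only in that of Hspa5. A match of letters is not a measured binding site. Hspa1a and Hspa1b are neighbours on the same strand, and 247 of their 250 upstream bases were identical (98.8%). The substitutions from Hspa1b to Hspa1a, counted from 1 at the 5′ end of the stretch, were T44C, C47T and G249T. In both stretches below, chr17:34959239-34959488 and chr17:34972157-34972406 on the minus strand, capitals mark the heat shock element match.
Hspa1b: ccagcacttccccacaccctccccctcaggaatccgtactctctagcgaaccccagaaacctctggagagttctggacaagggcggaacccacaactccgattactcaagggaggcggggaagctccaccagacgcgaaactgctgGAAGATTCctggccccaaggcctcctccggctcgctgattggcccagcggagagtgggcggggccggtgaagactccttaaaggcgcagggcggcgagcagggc
Hspa1a: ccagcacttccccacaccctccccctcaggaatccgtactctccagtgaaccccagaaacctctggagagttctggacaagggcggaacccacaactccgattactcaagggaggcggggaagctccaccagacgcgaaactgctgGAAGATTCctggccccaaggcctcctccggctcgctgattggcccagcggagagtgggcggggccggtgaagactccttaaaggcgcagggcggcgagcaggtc

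Hspd1 and Hspe1 lie head to head and share 1 upstream stretch, chr1:55088039-55088096, read on the plus strand for Hspe1 and on the minus strand for Hspd1. The 3 overlapping matches fuse there into 1 run of 4 alternating repeats, shown in capitals. The stretches of Hsph1 (chr5:149636342-149636389, minus strand) and Hspb1 (chr5:135887782-135887849, plus strand) hold 1 and 2 matches. That of Hspa5 (chr2:34772005-34772063, plus strand) has its endoplasmic reticulum stress element in capitals.
Hspe1: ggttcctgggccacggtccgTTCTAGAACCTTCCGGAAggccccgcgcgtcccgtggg
Hsph1: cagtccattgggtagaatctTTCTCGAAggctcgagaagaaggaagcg
Hspb1: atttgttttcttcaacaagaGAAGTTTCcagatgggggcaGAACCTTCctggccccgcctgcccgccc
Hspa5: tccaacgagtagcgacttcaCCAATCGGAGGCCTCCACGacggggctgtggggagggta

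All values are deposited log2 intensities, so a difference of 1 is a 2-fold change, and levels of different probe sets are not compared as amounts of RNA. Where probe sets are sorted by brightness, it is as a property of the measurement. The medians of the 6 arrays spanned 0.0694. The array of Tet1 KO replicate 2 stood apart: its correlation with the other arrays over all probe sets was 0.936 to 0.943, against at least 0.969 among the other arrays, and its brightest bacterial control read 4.87 against at most 4.37. WT replicate 3 and Tet1 KO replicate 3 read 3.73 and 3.57 as the mean of the Xist probe sets, the RNA that silences an X chromosome in female cells, against 10.55 to 10.84 on the other arrays. The labels give no sex. The difference between the 3′ and 5′ probe sets of Gapdh, a sign of RNA integrity, was 1.36 to 1.57 in WT and 1.76, 1.22 and 1.90 in Tet1 KO replicates 1 to 3. That of Actb was -0.15 to -0.04 in WT and 0.09, -0.33 and -0.10 in Tet1 KO replicates 1 to 3. Tet1 was lower at all 4 of its probe sets with no overlap between groups, by 0.93 to 1.68. Even so, none of the 4 passed the test between groups (limma adjusted p = 0.686 at each). Of the LSK markers, 8 of 10 had a probe set and all 8 read above 4.39, the mean level of the brightest bacterial control, which serves here as a guide to background. Of 27 markers of other cell types, 21 were measured and 14 of them read above it. These included all 6 measured granulocyte and monocyte markers and all 4 megakaryocyte markers. The summed linear intensity of the LSK markers ran from 7271 to 8460 in WT and from 5741 to 8491 in Tet1 KO. Of these 8, 5 were lower and 3 higher, 1 of the lower ones at an unadjusted limma p under 0.05. For the granulocyte and monocyte markers the sum ran from 3840 to 5978 in WT and from 4522 to 6913 in Tet1 KO. For the megakaryocyte markers it ran from 462 to 633 and from 567 to 791. For the T and NK cell markers it ran from 113 to 120 and from 126 to 166. All 5 measured were higher in Tet1 KO, and 2 of them averaged above the bacterial control level. Of the 5, 1 reached an unadjusted limma p under 0.05, against 6.73% of all genes. The groups did not overlap for 2 of the 5, against 17.1% of all genes. Tet1 KO replicate 2 was the highest array for 4 of the 5. Cd3e, a defining T cell gene, was below the bacterial control level on every array. Whether the LSK cells themselves gave these signals was not tested, nor was the part of other cells in the chaperone values. In bulk samples, fewer cells of a type and less RNA per cell cannot be told apart.

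No chaperone probe set passed the test of Tet1 KO against WT. In limma with Benjamini-Hochberg adjustment, 0 of the 20 were called, and the lowest adjusted p among them was 0.686. Across all 45037 probe sets tested, 0 were called (0%), with 3065 at an unadjusted p under 0.05 (6.81%), and 1 was called with an intensity trend in the variance. None of the 20 members reached an unadjusted p under 0.05. The groups overlapped at each of the 20, where 16.2% of all probe sets showed no overlap. The median difference of the members was 0.06, equal at this rounding to the 0.06 of all probe sets, with 10 higher and 10 lower, where 42.9% of all probe sets were lower. The 95% intervals of 17 members lay inside a 2-fold change either way and those of 9 inside a 1.5-fold change. The 3 whose intervals reached beyond 2-fold were Hspa1a, the brightest Hspa1b probe set and 1 of the 4 Hspa8 probe sets.

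**Figure D1:**
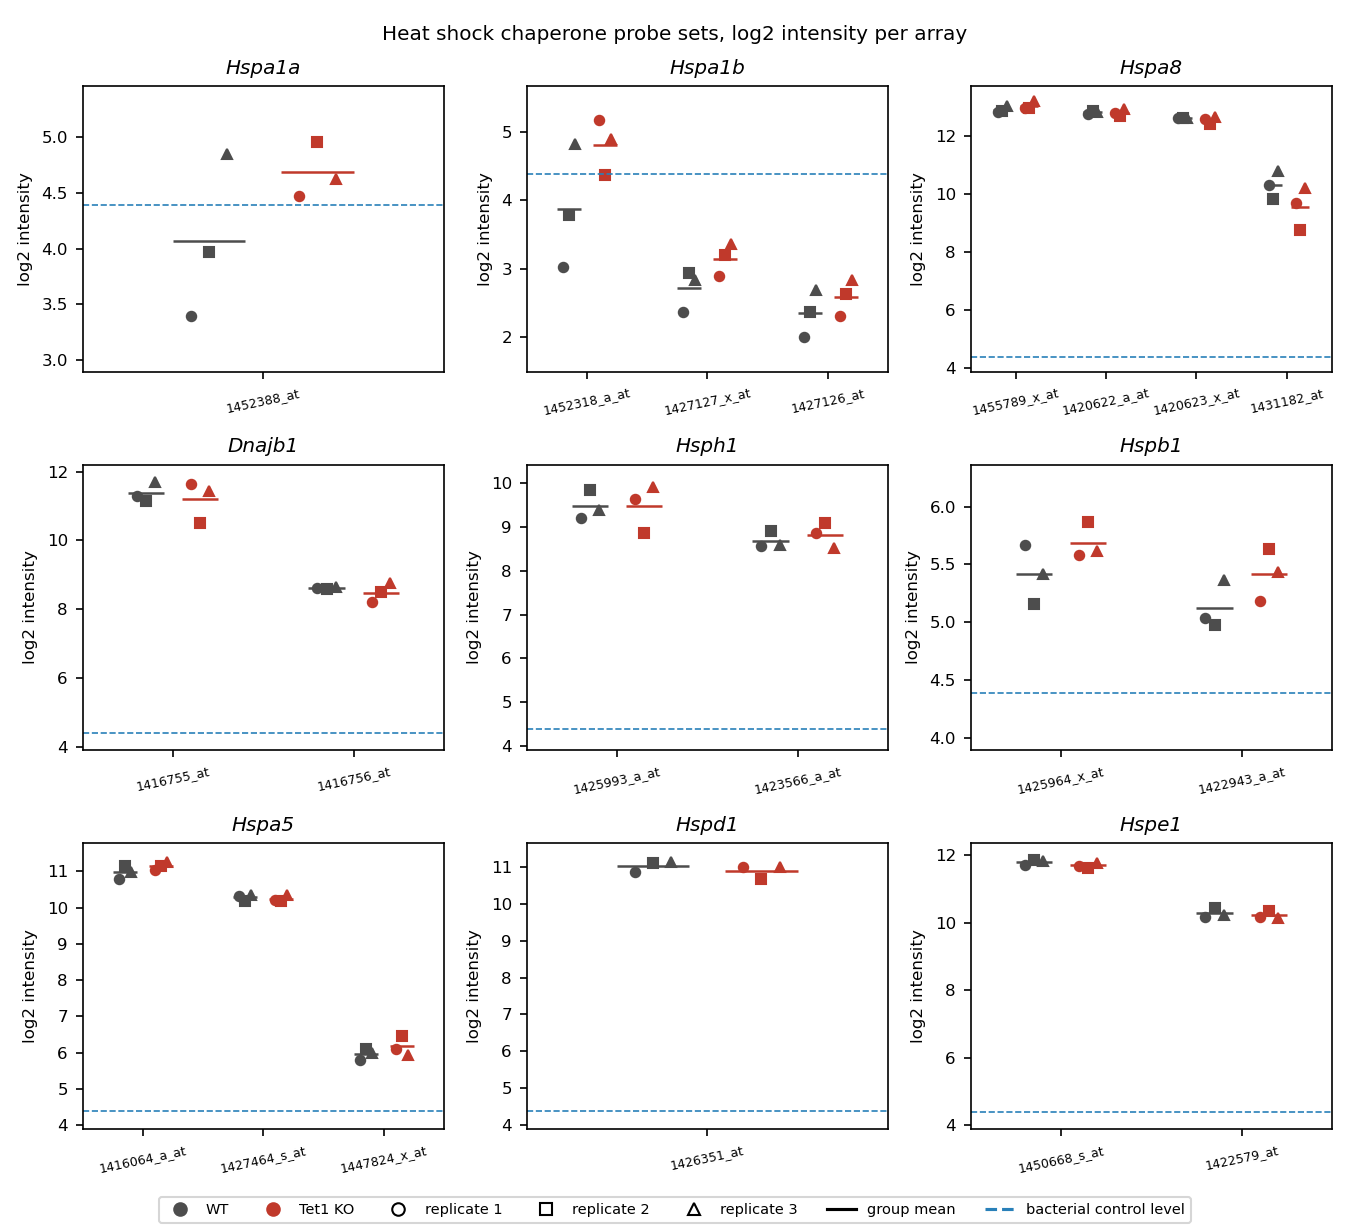
Log2 intensity of each member probe set on each of the 6 arrays, 1 panel per gene, with WT in grey and Tet1 KO in red. Marker shape gives the replicate, short lines are group means of 3 arrays and the dashed line is the bacterial control level of 4.39. The Hspa1a and Hspa1b probe sets lie around or under that line and spread most in WT, while at each of the 20 probe sets the groups overlap.

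The stress-inducible cytosolic HSP70 genes read near background and were uneven among the WT arrays. The Hspa1b probe set 1452318_a_at read 3.03, 3.79 and 4.82 on WT replicates 1, 2 and 3, and 5.17, 4.38 and 4.90 on Tet1 KO replicates 1, 2 and 3. Values of other probe sets are given in the same order of arrays. WT replicates 1 and 2 were below every Tet1 KO array, and WT replicate 3 lay among them. The difference was 0.94 (SE 0.46, 95% interval -0.16 to 2.04), from 3.88 ± 0.90 to 4.82 ± 0.40 (SD, n = 3), with a limma adjusted p of 0.686. Without WT replicate 3 it was 1.41 (limma adjusted p = 0.818), without WT replicate 1 it was 0.51, and without Tet1 KO replicate 2 it was 1.15. The Hspa1a probe set 1452388_at read 3.40, 3.97 and 4.85 in WT, and 4.47, 4.96 and 4.63 in Tet1 KO. Here too WT replicates 1 and 2 were the lowest arrays and WT replicate 3 was inside the Tet1 KO range. The difference was 0.62 (SE 0.37, 95% interval -0.27 to 1.50), with a limma adjusted p of 0.686, and it was 1.00 without WT replicate 3, 0.28 without WT replicate 1 and 0.48 without Tet1 KO replicate 2.

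These probe sets of Hspa1a and Hspa1b had the same order in WT, with replicate 1 lowest and replicate 3 highest, but their orders within Tet1 KO were opposite. Near-identical genes may share labelled fragments, so how far these probe sets measure 1 gene each is uncertain. Probe set 1427127_x_at, whose suffix marks probes that can match other transcripts, read 2.38, 2.93 and 2.84 in WT and 2.89, 3.20 and 3.36 in Tet1 KO, which differed by 0.44 (SE 0.22), or 0.26 without WT replicate 1. Probe set 1427126_at read 2.00, 2.37 and 2.69 in WT and 2.31, 2.63 and 2.84 in Tet1 KO, which differed by 0.24 (SE 0.24). Leaving out 1 array moved it between 0.06, without WT replicate 1, and 0.41, without WT replicate 3, and leaving out a Tet1 KO array gave from 0.11 (replicate 3) to 0.38 (replicate 1). Both were under their array's brightest bacterial control on all 6 arrays, against 4 arrays above it for Hspa1a and 3 for 1452318_a_at, so the scale of these differences is uncertain.

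Hspa8, the constitutive HSP70 of the cytosol, read closely alike in the groups at 3 of its 4 probe sets. Probe set 1420622_a_at read 12.74, 12.87 and 12.84 in WT and 12.81, 12.67 and 12.92 in Tet1 KO, a difference of -0.02 (95% interval -0.36 to 0.33). Probe set 1420623_x_at read 12.61, 12.61 and 12.62 in WT and 12.59, 12.42 and 12.65 in Tet1 KO, a difference of -0.06 (95% interval -0.40 to 0.28). Probe set 1455789_x_at differed by 0.13 (95% interval -0.24 to 0.51), or 0.05 without Tet1 KO replicate 3. None of these 3 intervals reached beyond 0.51 on the log2 scale in either direction. The fourth, 1431182_at, read 10.32, 9.83 and 10.80 in WT and 9.70, 8.76 and 10.23 in Tet1 KO. Tet1 KO replicates 1 and 2 were below all WT arrays, while Tet1 KO replicate 3 was above WT replicate 2. Its difference was -0.76 (SE 0.42, 95% interval -1.76 to 0.25; limma adjusted p = 0.686). Leaving out Tet1 KO replicate 2 gave -0.35, and leaving out Tet1 KO replicate 3 gave -1.09 (limma adjusted p = 0.551). The 4 probe sets of Hspa8 thus gave differences from -0.76 to 0.13, and the mean of them gave -0.17.

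The partners of cytosolic HSP70 varied with single arrays. Dnajb1, a J-domain protein that stimulates HSP70, read 11.30, 11.15 and 11.70 in WT and 11.65, 10.50 and 11.45 in Tet1 KO at 1416755_at. Only Tet1 KO replicate 2 was below the WT range, and the difference of -0.18 (SE 0.33) turned to 0.17 without that array. At 1416756_at the WT arrays lay within 8.58 to 8.64 and Tet1 KO read 8.19, 8.48 and 8.76, a difference of -0.14 (SE 0.18), which was 0.00 without Tet1 KO replicate 1. Hsph1, the HSP110 protein that exchanges the nucleotide of HSP70, read 9.22, 9.86 and 9.38 in WT and 9.65, 8.86 and 9.93 in Tet1 KO at 1425993_a_at. Tet1 KO replicate 2 was again the lowest array, and the difference of -0.01 (SE 0.32) became 0.30 without it. At 1423566_a_at the same array was the highest instead, with 8.58, 8.91 and 8.59 in WT against 8.87, 9.09 and 8.52 in Tet1 KO, which differed by 0.13 (SE 0.20), or 0.00 without it. On Tet1 KO replicate 2, then, the Hsph1 probe sets moved in opposite directions.

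Hspb1, a small heat shock protein that holds unfolded clients, read slightly higher on average in Tet1 KO at both probe sets without separation of the groups. Probe set 1422943_a_at read 5.03, 4.97 and 5.36 in WT and 5.19, 5.63 and 5.44 in Tet1 KO, which differed by 0.30 (SE 0.19; limma adjusted p = 0.686). Probe set 1425964_x_at read 5.67, 5.16 and 5.42 in WT and 5.58, 5.86 and 5.62 in Tet1 KO, which differed by 0.27 (SE 0.19; limma adjusted p = 0.688). Tet1 KO replicate 2 was the highest array at both, and without it the differences were 0.19 and 0.18. At 1425964_x_at the difference was 0.15 without WT replicate 2.

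The organelle chaperones had SDs within groups of 0.08 to 0.26. Their SEs were 0.14 to 0.19 in limma, which draws on the spread of all probe sets. Most Hspa8 probe sets and both of Hspb1 had SEs in the same range. Hspa5, the HSP70 of the endoplasmic reticulum also known as BiP, read 10.79, 11.14 and 10.99 in WT and 11.04, 11.15 and 11.27 in Tet1 KO at 1416064_a_at, a difference of 0.18 (95% interval -0.20 to 0.56), or 0.09 without WT replicate 1. At 1427464_s_at, whose suffix marks probes shared by several transcripts, the difference was -0.04 (95% interval -0.38 to 0.31). Probe set 1447824_x_at gave 0.21 (SE 0.19), and leaving out 1 array gave from 0.06 (Tet1 KO replicate 2) to 0.32 (Tet1 KO replicate 3), with 0.12 for WT replicate 1. Hspd1, the mitochondrial chaperonin HSP60, read 10.86, 11.12 and 11.14 in WT and 11.00, 10.69 and 10.99 in Tet1 KO at its only probe set, a difference of -0.15 (95% interval -0.55 to 0.25), and leaving out 1 array gave from -0.24 (WT replicate 1) to -0.05 (Tet1 KO replicate 2). Its partner Hspe1, the lid of that chaperonin, read 11.70, 11.85 and 11.83 in WT and 11.69, 11.61 and 11.78 in Tet1 KO at 1450668_s_at, a difference of -0.10 (95% interval -0.43 to 0.24), or -0.06 without Tet1 KO replicate 2. At 1422579_at it differed by -0.05 (95% interval -0.42 to 0.31). The genes that share the upstream stretch printed above thus both gave small negative differences whose intervals include 0. All of their probe sets lay in the brightest quartile of all probe sets, in which 66.8% were lower. Probe set 1422579_at turned to 0.063 after cyclic loess normalization and to 0.025 without WT replicate 2. A part of the shared stretch in these values was not tested.

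**Figure D2:**
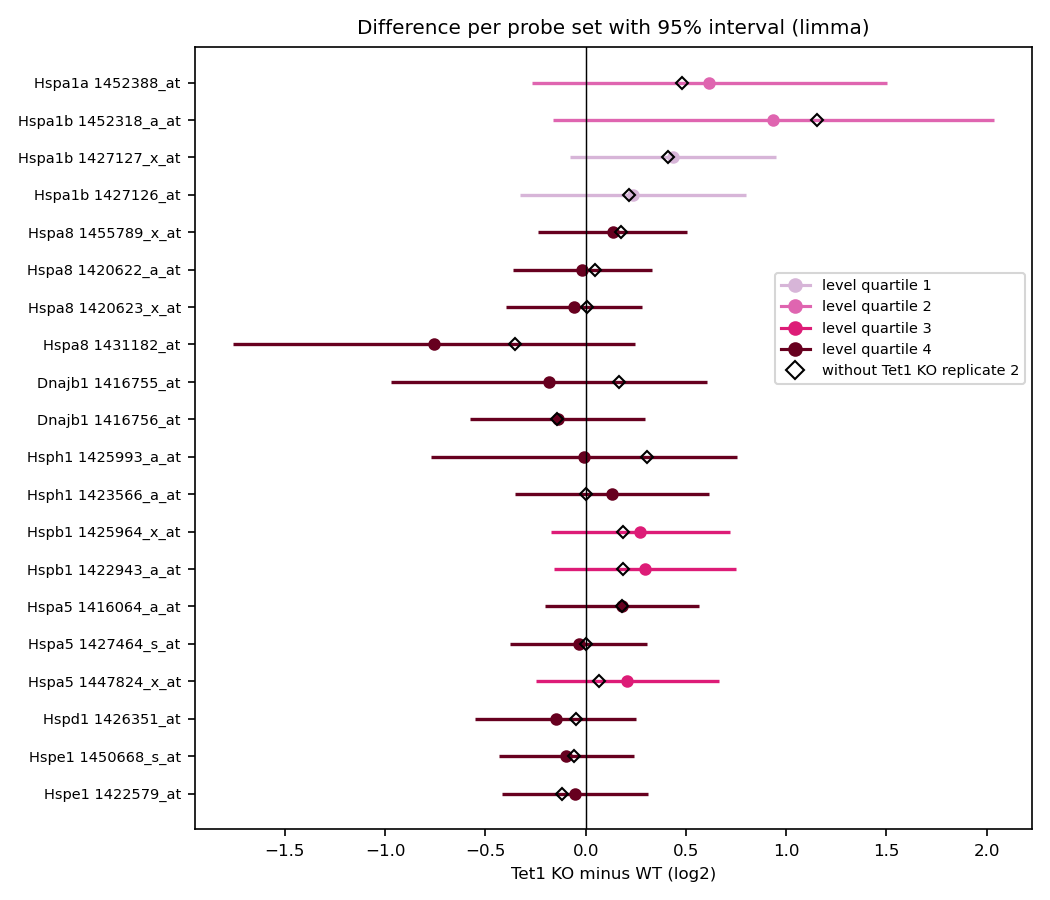
Difference of Tet1 KO minus WT (log2) for each of the 20 member probe sets with its 95% interval from limma, coloured by the quartile of mean level over all probe sets, from 1 (dimmest) to 4. Open diamonds give the difference without Tet1 KO replicate 2. All 20 intervals include 0, and the 7 probe sets of quartiles 1 to 3, of Hspa1a, Hspa1b, Hspb1 and Hspa5, all lie on the positive side.

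The sign of a member's difference went with its level. The 2 members in the dimmest quartile of all probe sets, the 2 in the second and the 3 in the third were all higher in Tet1 KO. Those of the first 2 quartiles were the probe sets of the near-identical Hspa1a and Hspa1b. Those of the third were both of Hspb1 and 1 of Hspa5, so these 7 are not separate genes. In the brightest quartile, 10 of 13 were lower. All probe sets shifted with level too: their median difference was 0.16, 0.13, -0.03 and -0.12 from the dimmest to the brightest quartile, against member medians of 0.34, 0.78, 0.27 and -0.05. The shift was widest on Tet1 KO replicate 2, where the medians of all probe sets relative to the WT mean were 0.26 in the dimmest quartile and -0.22 in the brightest. Without that array 6 of the 20 members (30%) were lower, against 45.6% of all probe sets. After cyclic loess normalization, which removes trends with level, 5 (25%) were, against 48.8% of all probe sets. The member medians in these settings were 0.12 and 0.10, against 0.028 and 0.007 for all probe sets. The 7 members of the lower 3 quartiles were on the higher side in both. The part of the level shift in the member differences was not tested further.

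**Figure D3:**
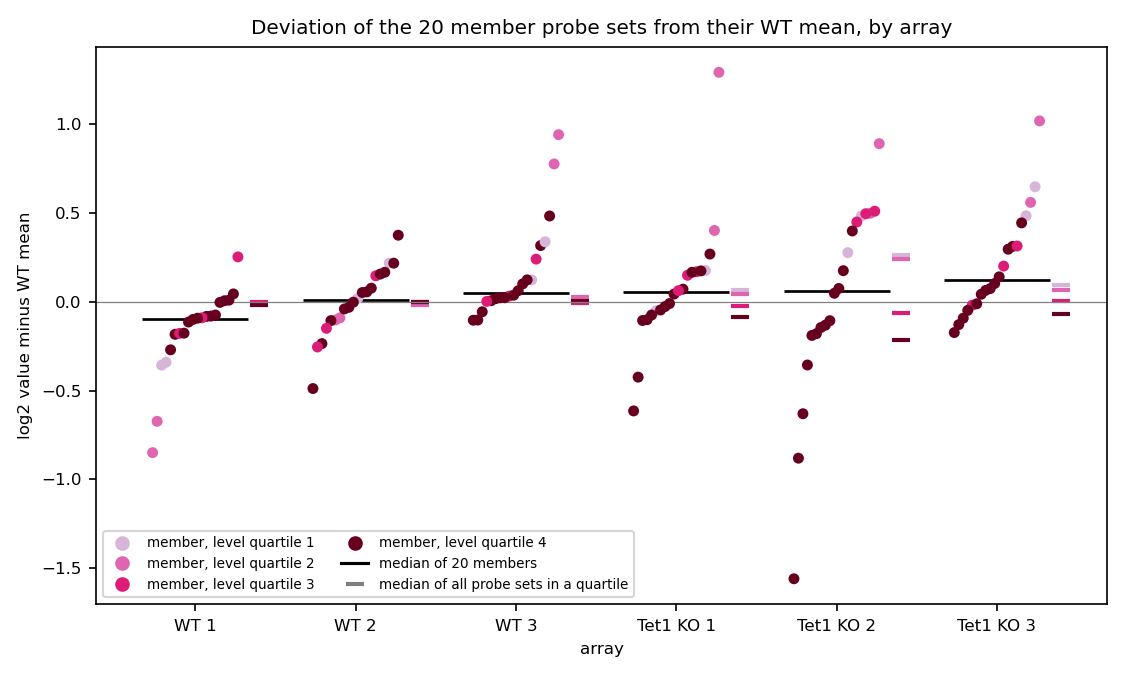
Log2 value of each of the 20 member probe sets minus its WT mean, by array, with colours for level quartiles, a black line for the median of the 20 and short coloured bars for the median of all probe sets in each quartile. Tet1 KO replicate 2 has the widest spread of members, from -1.56 to 0.89, and the member medians run from -0.10 on WT replicate 1 to 0.12 on Tet1 KO replicate 3.

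The arrays differed in how often they held the extremes. Tet1 KO replicate 3 was the highest array at 9 of the 20 members, Tet1 KO replicate 2 was the highest at 5 and the lowest at 8, and WT replicate 1 was the lowest at 7 and the highest at 0. Over all probe sets, Tet1 KO replicate 3 was the highest at 17.4%, Tet1 KO replicate 2 the highest at 35.9% and the lowest at 24.6%, and WT replicate 1 the lowest at 16.7% and the highest at 11.7%. These counts and shares are a description, with no test. Immediate early genes, which respond within minutes to handling and growth signals, were examined beside them because both classes can respond to cell preparation. Tet1 KO replicate 3 was also the highest array for 8 of the 12 immediate early genes, among them Fos, which read 11.52, 11.47 and 10.70 in WT and 11.53, 11.32 and 12.17 in Tet1 KO. Of the 12, 9 had positive differences, their median was 0.21, and 1 reached an unadjusted p under 0.05, where 6.73% of all genes did. That gene was Junb, at 0.59 (SE 0.22; limma adjusted p = 0.686) and 0.42 without Tet1 KO replicate 2. Egr1 differed by 0.66 (SE 0.41) and Ier2 by 0.37 (SE 0.24). The part of cell handling in the chaperone values was not tested.

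Other chaperone and protein quality control genes were drawn from 9 lists, each gene at its brightest probe set. Of 101 genes, 97 were measured, 65 lower and 32 higher in Tet1 KO. Their median difference was -0.11, while that of all 18193 genes was 0.05. Of these 97, 73 lay in the brightest quartile of all probe sets, in which 66.8% of probe sets were lower. After cyclic loess 55 of the 97 were lower, with a median of -0.04. In limma 0 of the 97 passed adjustment, and 1 higher and 1 lower reached an unadjusted p under 0.05, which is 2.06% against 6.73% of all genes. The groups did not overlap for 8 of the 97, or 8.25%, against 17.1% of all genes.

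For each list, the 3 genes with the smallest p are named, 27 in all. Tet1 KO replicate 2, the normalization and the choice of probe set weighed on many of them. Without that array 16 of the 27 differences moved by more than 1.5 times and 0 turned, and when the probe sets of each gene were averaged 8 moved so far and 4 turned. Those values are given with the genes that moved or turned. After cyclic loess 11 moved so far and 2 turned, Hsp90aa1 to 0.002 and Trap1 to 0.077. The cyclic loess values are given for some of the genes only.

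Among HSP90 chaperones, 3 of 3 measured were lower, but 1 of 3 after cyclic loess. Hsp90aa1, the inducible cytosolic HSP90, differed by -0.09 (SE 0.16), or -0.01 without Tet1 KO replicate 2 and 0.11 as the mean of its probe sets. Hsp90b1, that of the endoplasmic reticulum, differed by -0.12 (SE 0.22), or -0.06 without that array. Trap1, that of mitochondria, differed by -0.05 (SE 0.31), which was -0.41 without that array and 0.13 as the mean of its probe sets. Of the 15 measured nucleotide exchange factors and HSP90 co-chaperones, 12 were lower, with a median of -0.22. After cyclic loess 12 were lower with a median of -0.09, and without Tet1 KO replicate 2 10 were lower with a median of -0.12. The ubiquitin ligase Stub1, which sends chaperone clients to the proteasome, was the 1 with an unadjusted limma p under 0.05, at -0.58 (SE 0.23; limma adjusted p = 0.686). It read -0.36 without Tet1 KO replicate 2, with an unadjusted limma p of 0.063. Bag1, a nucleotide exchange factor of HSP70, differed by -0.79 (SE 0.34). The groups did not overlap at Stub1 and Bag1, as at 17.1% of all genes. Cdc37, which brings kinases to HSP90, differed by -0.46 (SE 0.27), which was -0.74 without Tet1 KO replicate 2 and -0.15 as the mean of its probe sets.

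Of the 8 subunits of CCT, the chaperonin that folds actin and tubulin, 6 were lower, or 5 after cyclic loess. Cct7 differed by -0.37 (SE 0.17) without overlap of the groups, or -0.20 as the mean of its probe sets. Cct5 differed by -0.22 (SE 0.16), or -0.10 after cyclic loess. Cct8 differed by -0.25 (SE 0.21), or -0.11 without Tet1 KO replicate 2 and -0.06 as the mean of its probe sets. J-domain co-chaperones other than Dnajb1 had 13 of 19 lower, but 7 of 19 without Tet1 KO replicate 2. Dnajc2, a ribosome-bound member, differed by -0.32 (SE 0.21), or -0.15 without that array and -0.04 as the mean of its probe sets. Dnajb12 differed by -0.48 (SE 0.34), or -0.12 without that array. Dnajc5 differed by 0.21 (SE 0.17), which turned to -0.19 as the mean of its probe sets. The other HSP70 and HSP110 genes split into 5 higher and 5 lower, with Hspa2 at 0.37 (SE 0.22) and Hspa12a at 0.20 (SE 0.16), or 0.12 without Tet1 KO replicate 2. The mitochondrial HSP70 Hspa9 differed by -0.22 (SE 0.19), or -0.09 without that array and 0.03 as the mean of its probe sets.

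Small heat shock genes other than Hspb1 had 5 of 7 higher, or 4 of 7 after cyclic loess. Hspb8 was the 1 with an unadjusted limma p under 0.05, at 0.44 (SE 0.18; limma adjusted p = 0.686), from 5.79 ± 0.24 to 6.23 ± 0.09 (SD, n = 3). Without Tet1 KO replicate 2 it was 0.42, with an unadjusted limma p of 0.069. At Hspb8, as at Hspb3, every Tet1 KO array was above every WT array, where the groups did not overlap for 17.1% of all genes. Cryab, at -0.38 (SE 0.22), and Hspb3, at 0.19 (SE 0.14) or 0.13 without Tet1 KO replicate 2, averaged under the bacterial control level. The other heat shock factor genes and their regulators had 4 of 5 lower. Hsf2 differed by -0.52 (SE 0.27), or -0.16 as the mean of its probe sets, and Hsf5 by -0.15 (SE 0.17), or -0.25 without Tet1 KO replicate 2, both averaging under that level. Hsbp1, which binds and restrains heat shock factors, differed by -0.27 (SE 0.19), or -0.17 after cyclic loess.

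In the endoplasmic reticulum list, 17 of 24 genes were lower, but 11 of 24 after cyclic loess. Sil1, a nucleotide exchange factor for BiP, differed by -0.48 (SE 0.20) without overlap of the groups, as at 17.1% of all genes. Syvn1, a ubiquitin ligase of the degradation pathway, differed by 0.44 (SE 0.20). Ern1, the stress sensor IRE1, differed by -0.49 (SE 0.25), or -0.27 without Tet1 KO replicate 2 and -0.19 as the mean of its probe sets. In the mitochondrial list, 9 of 14 were lower, or 8 after cyclic loess. The protease gene Afg3l2 differed by -0.36 (SE 0.17), or -0.23 without Tet1 KO replicate 2 and -0.14 as the mean of its probe sets. The protease gene Clpp differed by -0.62 (SE 0.33), or -0.27 without that array. Yme1l1, another, differed by -0.24 (SE 0.18), or -0.13 without that array and -0.06 as the mean of its probe sets.

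**Figure D4:**
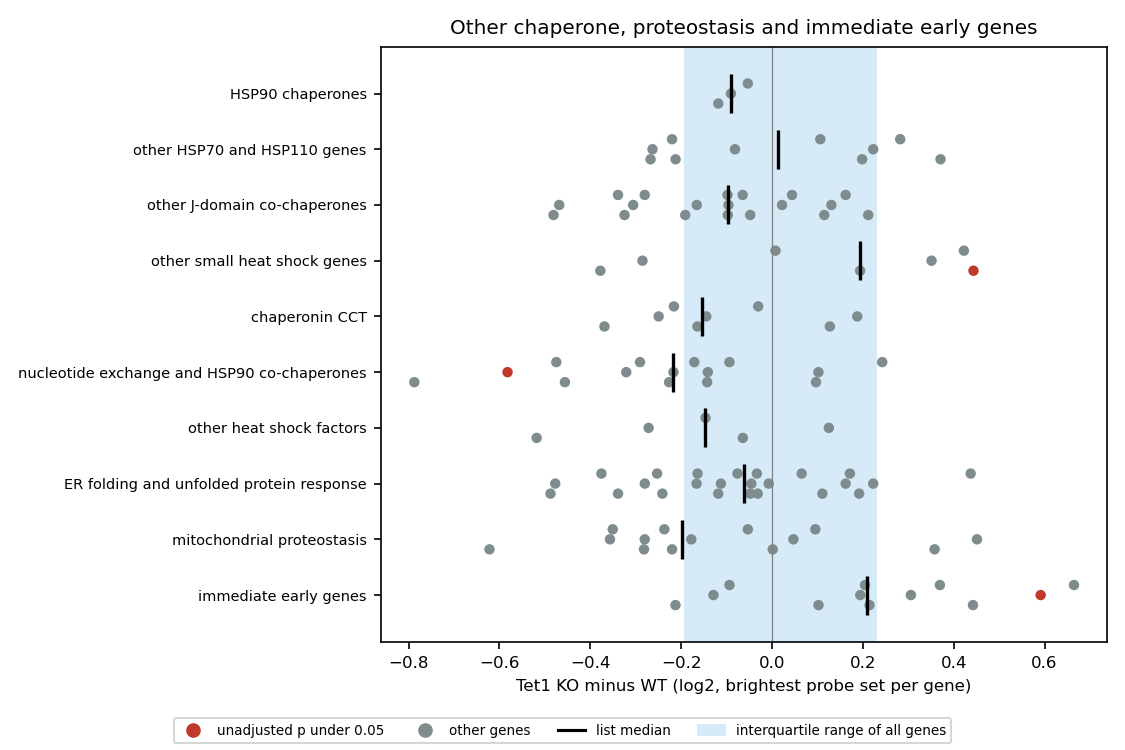
Difference of Tet1 KO minus WT (log2) at the brightest probe set of each gene in the 9 chaperone and protein quality control lists and the immediate early genes. Points are genes, red where the unadjusted limma p was under 0.05, black bars are list medians and the shaded band is the interquartile range of all 18193 genes. The red points are Hspb8, Stub1 and Junb, and the list medians run from -0.22 for the co-chaperones to 0.21 for the immediate early genes.

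The genes whose profile over the 6 arrays lay nearest to 3 of the members were sought among 12229 other genes, by the mean absolute difference of log2 values centred on each gene's own mean. For Hspd1 they were Arpc5, an actin-branching subunit, at 0.0178, Zfp605 at 0.0349 and Tmem70, an assembly factor of mitochondrial ATP synthase, at 0.0351, where Hspd1 itself deviated from its mean by 0.128 on average. For Hspa5 they were Lrrc56 at 0.0383, Pou2f2 at 0.0413 and Crtac1 at 0.0458, against a mean deviation of 0.122. For Hspa1b they were Stat2 at 0.245, Zcchc7 at 0.260 and Zfp39 at 0.268, against 0.626. With 6 arrays and so many genes, near matches of this kind are a description only.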

How the data were processed

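Arrays were labelled from 125 ng of RNA each, per the labels' protocols. The authors deposited log2 probe set intensities. The log2 scale was inferred from their range, 1.50 to 14.6. Their background correction, normalization and summarization are not given in the sources used here, nor is it resolved why whole-transcript labelling kits are named for an array with 3′ probe set names. Values were used as deposited. The 45037 probe sets that are not controls were fitted in R 4.3.3 with limma 3.58.1 (lmFit, eBayes) on a design of genotype alone. Tests were two-sided, with Benjamini-Hochberg adjustment and a threshold of 0.05. With 3 arrays against 3, an exact permutation test of 1 value cannot go below p = 0.1, and this number limits the precision. The fit was tested on simulated data. Genes were named from a platform annotation table. Lists used each gene's brightest probe set, the 3 smallest p per list being named. The bacterial control level averages, over arrays, the highest of 27 bacterial probe sets. The members and lists were chosen with earlier results of these data known. Same-numbered WT and Tet1 KO arrays did not deviate together over all probe sets (r = 0.0127, -0.00632 and 0.000539), so numbers were not taken to pair samples. Alternatives were other normalizations, filters, gene summaries and variance models, array weights, a replicate block and leaving out each array. The Xist-low arrays, as a covariate or left out, were added after seeing the data. Plots used matplotlib 3.10.9.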

Additional observations from a re-analysis of the deposited data

How the results depend on the processing

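Over 17 planned and 2 added alternatives, no member passed the adjusted test, with a lowest adjusted p in limma of 0.486. Of 352 member values, 330 kept their direction, while 22 turned. The level filters, brightest probe sets, intensity trends, replicate block and Xist covariate left each difference as it was. Values could not turn there, so the 22 came from the other alternatives. With quantile normalization Hspa8 gave 0.079 and 0.012 (1420622_a_at and 1420623_x_at), Hsph1 0.063 (1425993_a_at) and Hspa5 0.0062 (1427464_s_at), and 6 members were lower. With cyclic loess these gave 0.053, 0.017, 0.12 and 0.080, Hspe1 gave 0.063 (1422579_at), 5 members were lower and their median was 0.10. Of all probe sets, 45.9% were lower with quantile normalization and 48.8% with cyclic loess. With the mean of probe sets Hsph1 gave 0.063 and Hspa8 -0.17, and with array weights Dnajb1 gave 0.083 (1416755_at), Hspa8 0.017 (1420622_a_at) and Hsph1 0.16. The cause was not tested. The member median was -0.012 above the lower quartile of level, where 18 remained, -0.027 above the median level, where 16 remained, and 0.13 with the brightest probe set per gene, with 4 lower of 9, as with the mean of probe sets. Leaving out 1 array gave medians from 0.015 to 0.13, 6 to 10 lower, 0 to 2 members at an unadjusted p under 0.05, where 3.46% to 10.3% of all probe sets reached it, and 0 called of all probe sets. Among probe sets that turned, leaving out 1 array gave -0.41 to 0.17 and -0.28 to 0.0042 for Dnajb1 (1416755_at, 1416756_at), -0.078 to 0.046 and -0.11 to 0.0074 for Hspa8 (1420622_a_at, 1420623_x_at), -0.12 to 0.025 for Hspe1 (1422579_at) and -0.23 to 0.30 for Hsph1 (1425993_a_at). The count called was 1 with an intensity trend, robust or not. The replicate block gave 1 member at an unadjusted p under 0.05, Hspa8 1431182_at (limma adjusted p = 0.758), and 2396 of all probe sets (5.32%) against 3065. The Xist-low covariate gave 1, the same probe set, with 5.80% of all probe sets. Without the Xist-low arrays there were 2, with 5.12% of all probe sets: Hspa1b at 1.37 and Hspa1a at 1.03 (limma adjusted p = 0.710 each). Signal near the bacterial control level limits the Hspa1a and Hspa1b values.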

Other observations

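On the Xist-low arrays, the third of each group, 6 of the 20 member probe sets were the highest of their group in both WT and Tet1 KO (30.0%), against 10.4% of all probe sets, and 0 were the lowest in both. The 6 were 3 of the 4 Hspa8 probe sets and 1 each of Dnajb1, Hspa5 and Hspa1b. This was noticed in the data and was not tested, and with 1 such array per group the Xist state and other properties of these samples cannot be told apart. The genes were chosen after their values were seen.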
